A study of Mus musculus with 36 samples.

Results

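Bulk mRNA sequencing of 36 subcutaneous mouse tumors gave 12 libraries with high ceruloplasmin transcript (Cp-high tumors) and 11 with transcript of the MHC class II gene H2-Ea (H2-Ea-expressing tumors), and these 23 libraries were compared gene by gene. Both classes were chosen by measured expression and not by the labels. A library counted as Cp-high when Cp (ENSMUSG00000003617; GRCm38 chromosome 3, 19957054 to 20009145, plus strand) exceeded 1000 CPM, the count of a gene scaled to the sum of all gene counts of its library. It counted as H2-Ea-expressing when H2-Ea-ps (ENSMUSG00000036322; chromosome 17, 34341959 to 34344645, minus strand) exceeded 10 CPM. The library labeled PancO2 anti-PD-1 71 met the second condition and was left out by the rule. The remaining 12 libraries, which were Cp-low and H2-Ea-negative, served only as a reference.

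The study concerned nucleotide metabolism of cancer cells and resistance to checkpoint antibodies. Its labels name 3 lines: MC38, a colon adenocarcinoma line, and PancO2, a pancreatic adenocarcinoma line, both placed in C57BL/6J mice, and CT26, a colon carcinoma line placed in BALB/c mice. All mice were labeled wild type and 12 weeks old, and received control IgG, an antibody against CTLA4 or an antibody against PD-1 by intraperitoneal injection at 10 mg/kg.  According to the labels, the Cp-high class held 4 MC38, 3 CT26 and 5 PancO2 tumors, of which 3 had received IgG, 4 anti-CTLA4 and 5 anti-PD-1. The H2-Ea-expressing class held 4 MC38, 4 CT26 and 3 PancO2 tumors, of which 4 had received IgG, 4 anti-CTLA4 and 3 anti-PD-1. Each class thus mixed all the labeled lines and both labeled strains, and H2-Ea-ps exceeded 10 CPM in libraries labeled C57BL/6J. Line, host strain and anything else that differed between the 2 classes cannot be told apart here. In bulk tissue, fewer cells of a type and less RNA per cell cannot be told apart either.

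Ceruloplasmin is a copper-carrying ferroxidase that oxidizes iron as it leaves cells. H2-Ea encodes the alpha chain of the class II molecule I-E, which pairs with the product of H2-Eb1 and presents peptides to CD4+ T cells. Mice of the H2b haplotype, C57BL/6 among them, lack I-E because of a deletion at the H2-Ea promoter, whereas H2d mice such as BALB/c make it, and the reference annotation therefore lists the gene as a polymorphic pseudogene. The other class II molecule, I-A, is encoded by H2-Aa and H2-Ab1, and class II genes share promoter elements, the X and Y boxes, through which the coactivator CIITA works.

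Library totals ran from 13174505 to 41751023 counts in the Cp-high class and from 11821687 to 33199177 in the H2-Ea-expressing class. Mitochondrial transcripts took 3.27% to 4.35% and 3.89% to 4.27% of counts, respectively. Reads set aside for lack of a unique position made up 37.8% to 43.4% of all reads in the Cp-high class and 41.7% to 45.8% in the H2-Ea-expressing class, so genes with close copies were undercounted. Whether counting used strand is not given in the sources used here, and counts of overlapping or antisense genes are uncertain.

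The genes that defined the classes were far apart on both sides of each threshold. Cp had a lowest value of 1389, a median of 1832 and a highest value of 2168 CPM in the Cp-high class. It lay between 36.5 and 143 CPM, with a median of 109, in the H2-Ea-expressing class and between 255 and 611 in the reference libraries. The lowest library above the Cp threshold, PancO2 IgG 48, therefore had 1389 CPM and the highest below it, PancO2 IgG 49, had 611. H2-Ea-ps lay between 32.8 and 134 CPM, with a median of 76.5, in the H2-Ea-expressing class. Its highest value among the Cp-high libraries was 0.0845 CPM, no library of the class had more than 3 counts, and 6 of these 12 libraries held none. The lowest library above that threshold had 32.8 CPM and the highest below it had 0.0845. These values chose the libraries and are given as a description with no test.

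**Figure D1:**
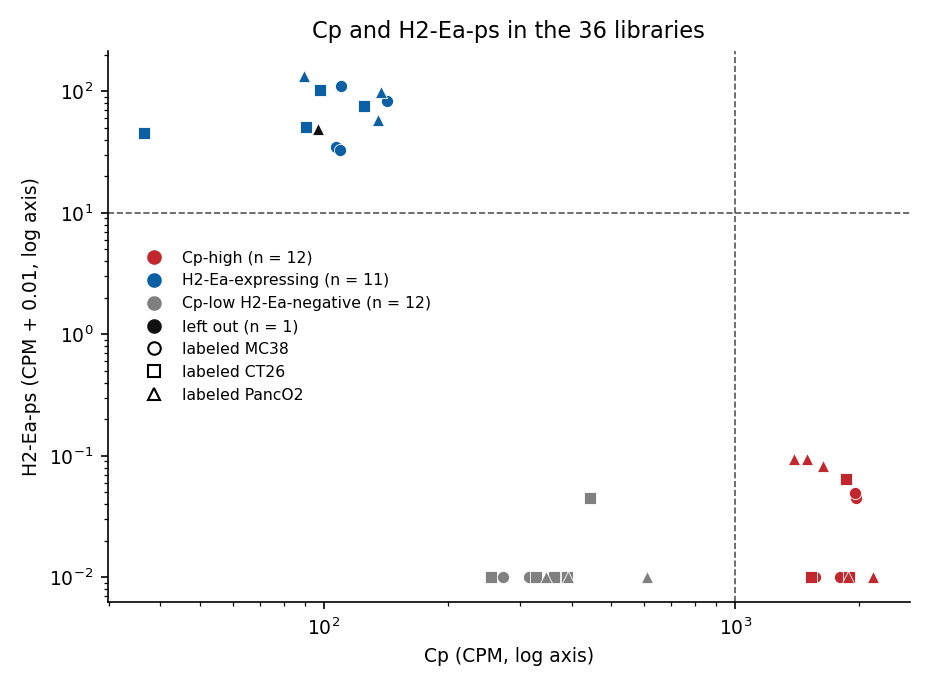
Cp against H2-Ea-ps in all 36 libraries, in CPM on log axes with 0.01 CPM added to H2-Ea-ps. Dashed lines are the thresholds of 1000 and 10 CPM, colors give the class and symbols the labeled line. Cp-high libraries start at 1389 CPM of Cp, H2-Ea-expressing libraries stay at or below 143, and every symbol occurs in both classes.

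The remaining markers of the classes were named with earlier results of these data known, so their division is a description. Slc38a3, a sodium-coupled glutamine transporter (ENSMUSG00000010064; chromosome 9, 107650634 to 107669530, minus strand), ran from 27.9 through a median of 46.2 to 90.0 CPM in Cp-high tumors and did not exceed 0.0719 CPM in H2-Ea-expressing tumors. Ifi202b, an interferon-inducible gene of the Ifi200 family whose expression depends on mouse strain (ENSMUSG00000026535; chromosome 1, 173962568 to 173982744, minus strand), ran from 221 through 261 to 289 CPM in H2-Ea-expressing tumors. It stayed at or below 2.58 CPM in Cp-high tumors and at or below 0.509 CPM in the reference libraries. Neither gene overlapped between the classes.

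Among 15599 genes tested, 2032 were higher and 1248 lower in the Cp-high class without overlap, meaning that every library of a class lay above every library of the other and that the fitted difference was at least 1 on the log2 scale. These counts are 13.0% and 8.0% of the genes tested. With edgeR's quasi-likelihood test, 6311 genes (40.5%) were called higher and 5757 (36.9%) lower at a Benjamini-Hochberg adjusted p under 0.05. Because the libraries had been selected on expression, no p-value is given for this contrast, and the shares are printed as the background of the counts that follow. Genes without overlap are called separated from here on, log2 differences are Cp-high minus H2-Ea-expressing with their standard error (SE), and values given in a row are the lowest, the median and the highest library. The median log2 difference of all genes tested was 0.05.

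MHC class II genes were mostly higher in Cp-high tumors. Of 12 listed and tested, 9 were higher in Cp-high tumors without overlap, 1 (H2-Ea-ps) was lower and 2 were not separated, and the median log2 difference was 3.38, against 0.05 for all genes. The promoter sequences of some of these genes are shown first because most of the genes shared a direction. Of the 12 genes, 8 had an entry in RefSeq's promoters for GRCm38.p6. Within the 150 bases before the annotated start, the Y box core TGATTGG was found in 7 of them, and an X box pattern, AACNNATGATG, in 4. The X box pattern was read from the 4 promoters that hold ATGATG in the 40 bases before the Y box, with the 5 bases before it and N where they differ. Both were searched on both strands, the patterns do not overlap each other in the sequences shown, and capitals mark the matches.
H2-Aa, chr17:34287824-34287973, minus strand: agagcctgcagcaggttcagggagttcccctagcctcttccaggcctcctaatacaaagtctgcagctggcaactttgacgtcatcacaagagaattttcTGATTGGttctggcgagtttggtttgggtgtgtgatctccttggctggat
H2-Eb1, chr17:34305717-34305866, plus strand: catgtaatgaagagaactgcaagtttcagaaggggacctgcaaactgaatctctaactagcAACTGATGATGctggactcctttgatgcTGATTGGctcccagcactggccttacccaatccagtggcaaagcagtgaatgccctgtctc
H2-DMb1, chr17:34153041-34153190, plus strand: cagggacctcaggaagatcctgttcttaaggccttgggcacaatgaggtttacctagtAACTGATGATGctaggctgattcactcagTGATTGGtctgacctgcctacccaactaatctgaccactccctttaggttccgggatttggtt
H2-Ob, chr17:34238755-34238904, plus strand: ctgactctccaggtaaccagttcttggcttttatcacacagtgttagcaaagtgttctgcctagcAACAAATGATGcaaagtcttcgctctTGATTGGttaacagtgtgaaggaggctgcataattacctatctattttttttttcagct
In the same 150 bases, TGATTGG occurred in 5.71% and AACNNATGATG in 0.0791% of the 32851 promoter entries, and 7 entries held both. Since the X box pattern was read from these promoters, its presence in them is a description. The promoter of H2-DMb2, not shown, also held both patterns, although H2-DMb2 was not separated between the classes. H2-Aa lacked a match to that pattern in the bases shown, which says only that these letters are not in this window.

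Both chains of the I-A molecule were higher in Cp-high tumors. H2-Aa, its alpha chain, ran 386, 1162 and 1625 CPM in Cp-high tumors and 35.4, 71.6 and 153 CPM in H2-Ea-expressing tumors, a log2 difference of 3.72 (SE 0.30). H2-Ab1, its beta chain, ran 211, 720 and 1036 CPM against 24, 47.1 and 96.9 CPM, a log2 difference of 3.62 (SE 0.29). Every Cp-high tumor exceeded every H2-Ea-expressing tumor for both chains. H2-Eb1, the beta chain that joins H2-Ea in I-E, ran 279, 923 and 1361 CPM against 21.6, 54.2 and 112 CPM, a log2 difference of 3.87 (SE 0.31). The tumors that carried H2-Ea-ps transcript thus had the lower level of its partner chain, while the Cp-high tumors carried the partner with H2-Ea-ps at or under 0.0845 CPM. Class II genes are polymorphic, so reads from other haplotypes may be counted unequally and the class II levels are uncertain for that reason.

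Genes that load class II molecules were also higher in Cp-high tumors. Cd74, the invariant chain that occupies the groove of new class II molecules, ran 754, 2391 and 3680 CPM in Cp-high tumors and 120, 244 and 401 CPM in H2-Ea-expressing tumors (log2 difference 3.16, SE 0.26). H2-DMb1, a chain of the peptide-exchange molecule H2-DM, ran 56.0, 121 and 194 CPM against 5.52, 11.8 and 19.5 CPM (3.31, SE 0.28), and H2-DMa was also separated. H2-Ob, a chain of the H2-DM inhibitor H2-O, ran 3.24, 4.76 and 14.8 CPM against 0.129, 0.486 and 0.788 CPM (3.55, SE 0.28), and H2-Oa was separated as well. H2-Eb2 had 2 counts over all H2-Ea-expressing libraries and 3220 over the Cp-high libraries, a ratio of the pooled levels of 1250.4 (95% counting interval 346 to 10330). Ciita, the gene of the class II coactivator, overlapped: it ran 14.2, 60.1 and 115 CPM in Cp-high tumors and 3.43, 10.7 and 16.8 CPM in H2-Ea-expressing tumors (2.69, SE 0.35). H2-DMb2 also overlapped.

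**Figure D2:**
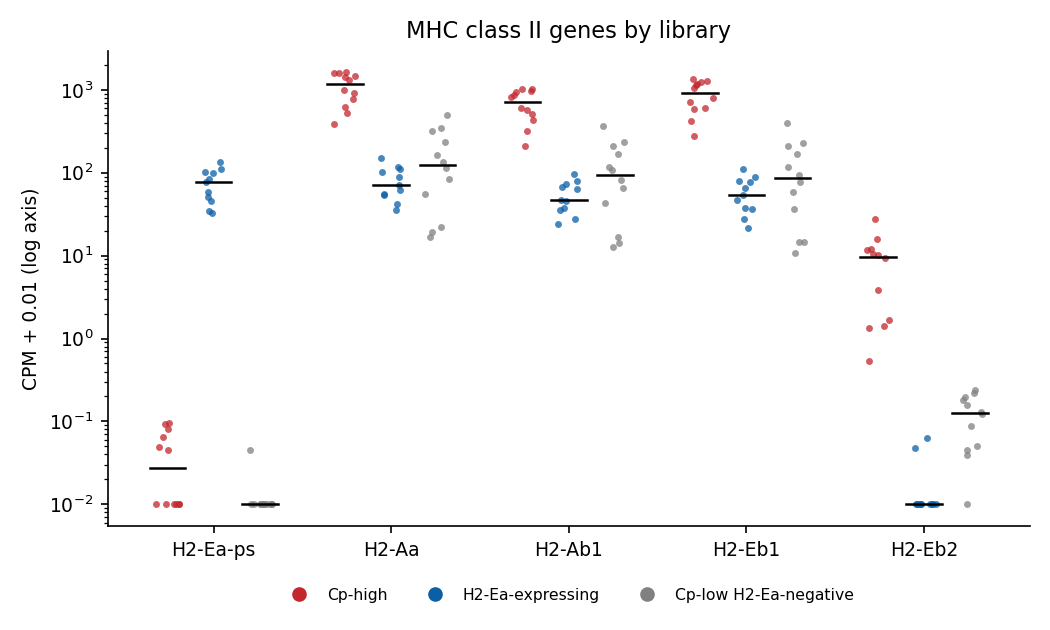
MHC class II genes in each library, as CPM plus 0.01 on a log axis. Points are libraries, lines are class medians and colors are classes. H2-Ea-ps stands between 32.8 and 134 CPM in the H2-Ea-expressing class alone, whereas H2-Aa, H2-Ab1, H2-Eb1 and H2-Eb2 are higher in every Cp-high library than in any H2-Ea-expressing library.

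The class II level varied within the Cp-high class. The summed level of the 12 genes ran from 1763 through 5500.4 to 8148 CPM in Cp-high tumors and from 261 through 548 to 966 CPM in H2-Ea-expressing tumors. The lowest Cp-high tumor was the one labeled CT26 IgG 28, and it still exceeded all H2-Ea-expressing tumors. In the reference libraries the sum ran from 118 through 702 to 2718 CPM, overlapping both classes.

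Markers of dendritic cells, which carry class II molecules, stood with the class II genes. Of 15 markers, 13 passed the filter on low counts. Of these, 9 (69.2%) were higher in Cp-high tumors without overlap and 0 lower, against 13.0% and 8.0% of all genes. The median log2 difference of the list was 2.51. Xcr1, the chemokine receptor of cross-presenting dendritic cells, ran 9.12, 16.4 and 42.7 CPM in Cp-high tumors against 1.21, 2.63 and 4.36 CPM (2.72, SE 0.28). Clec9a, a receptor of the same cells for dead-cell debris, ran 5.52, 10.4 and 57.2 CPM against 0.55, 1.57 and 2.11 CPM (3.39, SE 0.39). Both were separated between the classes. Flt3, the receptor for the dendritic cell growth factor, ran 6.98, 9.48 and 34.3 CPM against 0.693, 1.47 and 1.92 CPM (3.12, SE 0.26). Ccl22 and Ccl17, ligands of CCR4 made by dendritic cells, had log2 differences of 3.30 (SE 0.28) and 4.12 (SE 0.34). Markers of B cells, which also carry class II, gave no separated gene among 8 tested, with a median log2 difference of 1.17. Their summed level nevertheless ran from 38.1 to 80.3 CPM in Cp-high tumors and from 13.9 to 37.1 CPM in H2-Ea-expressing tumors, without overlap. The summed dendritic cell markers ran 505, 592 and 729 CPM in Cp-high tumors and 277, 305 and 321 CPM in H2-Ea-expressing tumors. The part of dendritic cell or B cell content in the class II difference was not tested.

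T cell markers were higher and cytotoxic genes lower where they were separated, with 1 exception. Of 20 T cell markers, 6 (30%) were higher and 1 (5%) lower in Cp-high tumors, against 13.0% and 8.0% of all genes. The other 13 were not separated, and the median log2 difference of the list was 1.15. Cd4, the coreceptor for class II, ran 3.63, 6.31 and 10.5 CPM in Cp-high tumors and 0.746, 1.87 and 2.92 CPM in H2-Ea-expressing tumors (1.82, SE 0.20). Foxp3, the transcription factor of regulatory T cells, ran 1.97, 3.68 and 7.45 CPM against 0.843, 1.17 and 1.82 CPM (1.60, SE 0.20). Neither overlapped. Cd8a, the coreceptor for class I, overlapped, at 11.9, 23.3 and 57.9 CPM against 6.00, 13.6 and 20.1 CPM (0.88, SE 0.22). Cd5 (2.27, SE 0.23), Cd2 (1.83, SE 0.21) and Cd6 (1.79, SE 0.21), surface receptors of T cells, were also higher in Cp-high tumors. Tigit, an inhibitory receptor of T and NK cells, was lower, at 2.73, 4.70 and 9.04 CPM against 9.23, 11 and 13.7 CPM (-1.20, SE 0.15).

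Of 16 cytotoxic effector genes, 0 were higher and 7 (43.8%) lower in Cp-high tumors without overlap, against 13.0% and 8.0% of all genes. Their median log2 difference was -1.59. Prf1, which encodes the pore-forming protein perforin, ran 0.767, 3.44 and 11.4 CPM in Cp-high tumors and 18.5, 29.4 and 51.3 CPM in H2-Ea-expressing tumors (-2.94, SE 0.35). Gzma, a granule protease, ran from 0 through 1.41 to 2.89 CPM against 5.93, 12.9 and 24 CPM (-3.14, SE 0.34). Both were separated. The clustered granzymes Gzmc, Gzmd, Gzme, Gzmf and Gzmg were all lower, with log2 differences from -3.98 (SE 0.35) for Gzmc to -8.54 (SE 0.50) for Gzmg. These genes are near-identical neighbors on chromosome 14, and how their reads were divided is uncertain. Gzmb ran 2.91, 8.53 and 28.2 CPM against 22.2, 37.9 and 79.1 CPM and overlapped. Of 10 NK cell markers tested, 1 was higher and 1 lower, 10% each and near the 13.0% and 8.0% of all genes. Ncr1, the activating receptor NKp46 of NK cells, was lower in Cp-high tumors, at 0.164, 0.391 and 0.807 CPM against 2.41, 4.0 and 6.15 CPM (-3.25, SE 0.23). Klrb1c, the NK1.1 antigen, overlapped at medians of 0.822 and 1.01 CPM. Klra4, an NK cell receptor of a polymorphic family, ran 28.6, 43.0 and 63.8 CPM in Cp-high tumors and at most 0.108 CPM in H2-Ea-expressing tumors. It ran 57.9, 71.3 and 89.0 CPM in the reference libraries. The Klra genes share sequence, and this value is uncertain for that reason.

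Of 27 macrophage markers tested, 3 were higher and 3 lower in Cp-high tumors, 11.1% each and near the 13.0% and 8.0% of all genes, with a median log2 difference of 0.33. Mrc1, the mannose receptor CD206, ran 24.3, 55.6 and 95.1 CPM in Cp-high tumors and 157, 256 and 394 CPM in H2-Ea-expressing tumors (-2.39, SE 0.20). Msr1, a scavenger receptor, ran 27.1, 50.4 and 81.1 CPM against 154, 215 and 292 CPM (-2.22, SE 0.17), and Folr2, a folate receptor of resident macrophages, had a log2 difference of -2.26 (SE 0.27). Apoe, which encodes a lipid-carrying apolipoprotein, ran 508, 1498 and 3542 CPM in Cp-high tumors and 105, 229 and 348 CPM in H2-Ea-expressing tumors (2.82, SE 0.24). Cx3cr1, the fractalkine receptor, ran 88.9, 114 and 146 CPM against 13.1, 26.2 and 51.3 CPM (1.92, SE 0.17). Its ligand Cx3cl1 was also higher, at 52.9, 80.2 and 122 CPM against 0.97, 1.91 and 3.06 CPM (5.31, SE 0.19). The general macrophage markers Adgre1 and Csf1r overlapped, with log2 differences of 0.63 (SE 0.11) and 0.79 (SE 0.12). The summed macrophage markers had medians of 7944 and 7480.5 CPM in the 2 classes. Of 17 neutrophil markers tested, 1 (5.88%) was higher and 0 lower, against 13.0% and 8.0% of all genes. The higher one was the receptor gene Csf3r (1.60, SE 0.17), and Ly6g stayed at or below 0.0711 CPM in both classes.

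**Figure D3:**
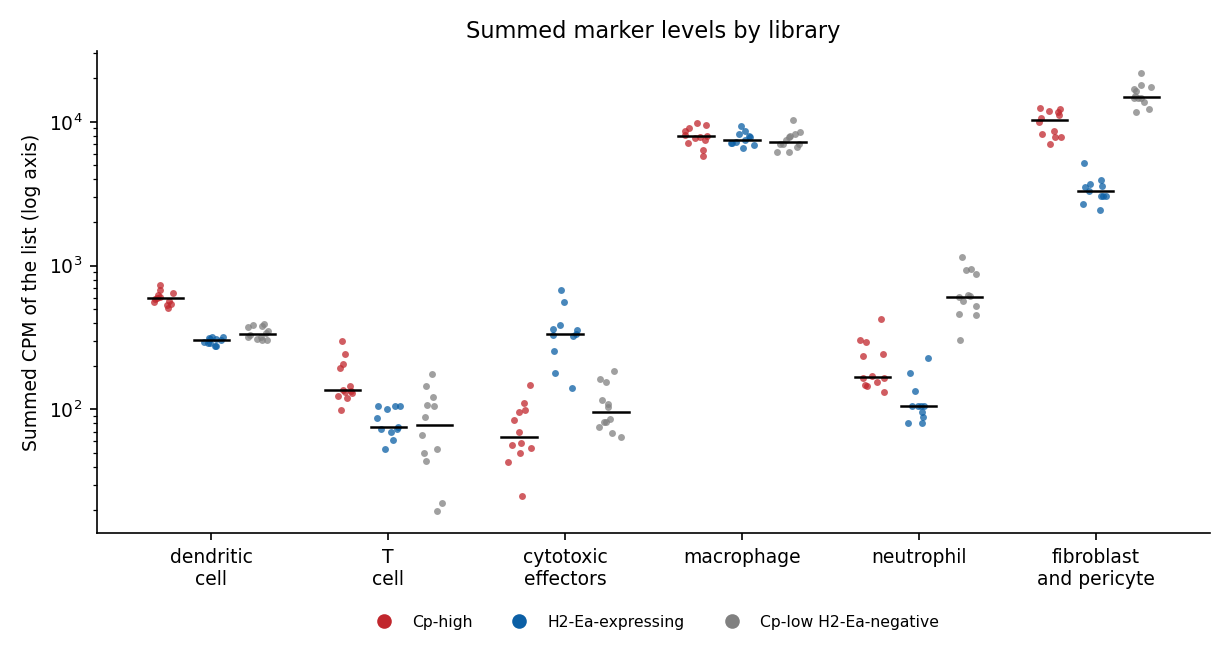
Summed CPM of 6 marker lists in each library on a log axis. Points are libraries, lines are class medians and colors are classes. Dendritic cell sums are at or above 505 CPM in Cp-high tumors and at or below 321 in H2-Ea-expressing tumors, cytotoxic effector sums have medians of 64.2 and 333 CPM, and macrophage sums overlap.

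Of 30 chemokine genes tested, 6 (20%) were higher and 4 (13.3%) lower in Cp-high tumors, against 13.0% and 8.0% of all genes. Their median log2 difference was -0.17. Cxcl5, a neutrophil-attracting ligand of CXCR2, ran 51.9, 129 and 745 CPM in Cp-high tumors and 1.17, 3.27 and 5.55 CPM in H2-Ea-expressing tumors (6.10, SE 0.49). Cxcl1, another ligand of CXCR2, was lower in Cp-high tumors, at 0.0759, 0.32 and 5.83 CPM against 7.48, 14.2 and 40.4 CPM (-3.91, SE 0.53). Neither overlapped, and the ligands of this receptor thus stood on opposite sides. Of 16 checkpoint ligand genes tested, 3 (18.8%) were higher and 2 (12.5%) lower (median log2 difference 0.46). Cd276, which encodes B7-H3, ran 77.1, 99.1 and 129 CPM against 16.6, 19.8 and 25.8 CPM (2.23, SE 0.08). Cd80 and Cd86, which encode the B7 ligands of CD28 and CTLA4, went in opposite directions, with log2 differences of -1.62 (SE 0.16) and 1.28 (SE 0.14). Ceacam1, an adhesion molecule and ligand of TIM-3, ran 1.18, 1.79 and 2.08 CPM against 20.5, 42.5 and 74.6 CPM (-4.79, SE 0.18). Cd274, which encodes PD-L1, overlapped, at 41.1, 67.7 and 206 CPM against 35.8, 54.7 and 95.4 CPM (0.63, SE 0.27).

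Under the naming rule, which took protein-coding genes of at least 10 CPM on average, the 12 genes with the largest positive difference were Aspg, Hmgcll1, Wnt7b, Ptn, Slc38a3, Syt13, Camk1g, Insc, Artn, Nexmif, Slc6a12 and Map2. Ptn, the heparin-binding growth factor pleiotrophin, ran 289, 589 and 851 CPM in Cp-high tumors, against at most 0.791 CPM in H2-Ea-expressing tumors and 0.49 CPM in the reference libraries (log2 difference 10.94, SE 0.31). Map2, a neuronal microtubule-associated protein, ran 241, 470 and 609 CPM against at most 0.761 CPM (10.01, SE 0.22). Syt13, a synaptotagmin, ran 268, 328 and 445 CPM against at most 0.508 CPM (10.60, SE 0.19). For these genes, each Cp-high tumor exceeded each H2-Ea-expressing tumor by more than 2 orders of magnitude. Wnt7b, a Wnt ligand, ran 102, 131 and 174 CPM against at most 0.169 CPM (11.03, SE 0.20), but was also present in the reference libraries at 32.4, 63.1 and 84.6 CPM. Aspg, an asparaginase, had no count in any H2-Ea-expressing library and 38.1, 63.4 and 83.3 CPM in Cp-high tumors. Set against a limit of 3 counts over the pooled H2-Ea-expressing class, it was at least 4923-fold higher, counting error only.

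The 12 genes with the largest negative difference were Tmem74, Cyp2c55, Nefm, Krt20, Amigo2, 1700012B09Rik, Ifi202b, Nefl, Sele, Unc13c, Rims2 and Arsj. Krt20, a keratin of intestinal epithelium, ran 72.7, 164 and 253 CPM in H2-Ea-expressing tumors and at most 0.384 CPM in Cp-high tumors (-10.24, SE 0.28). Nefm and Nefl, subunits of neurofilament, ran 21.7, 40.4 and 62.9 CPM and 13.2, 22 and 40.1 CPM in H2-Ea-expressing tumors, against at most 0.0995 and 0.104 CPM in Cp-high tumors. Sele, which encodes the endothelial adhesion molecule E-selectin, ran 97.9, 132 and 155 CPM against at most 0.589 CPM (-9.29, SE 0.22). Every one of these genes was separated. The endothelial markers, among which Sele was not listed, gave 1 separated gene among 19, Vwf (3.63, SE 0.23), and Pecam1 and Cdh5 overlapped with log2 differences of -0.61 (SE 0.11) and -0.62 (SE 0.17). Amigo2, a cell adhesion protein, ran 317, 363 and 433 CPM against at most 0.594 CPM (-9.84, SE 0.14), and the reference libraries held 242, 285 and 320 CPM. Tmem74 had 1 count over all Cp-high libraries and 6308 over the H2-Ea-expressing libraries, a ratio of pooled levels of 8122 (95% counting interval 1457 to 320848).

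**Figure D4:**
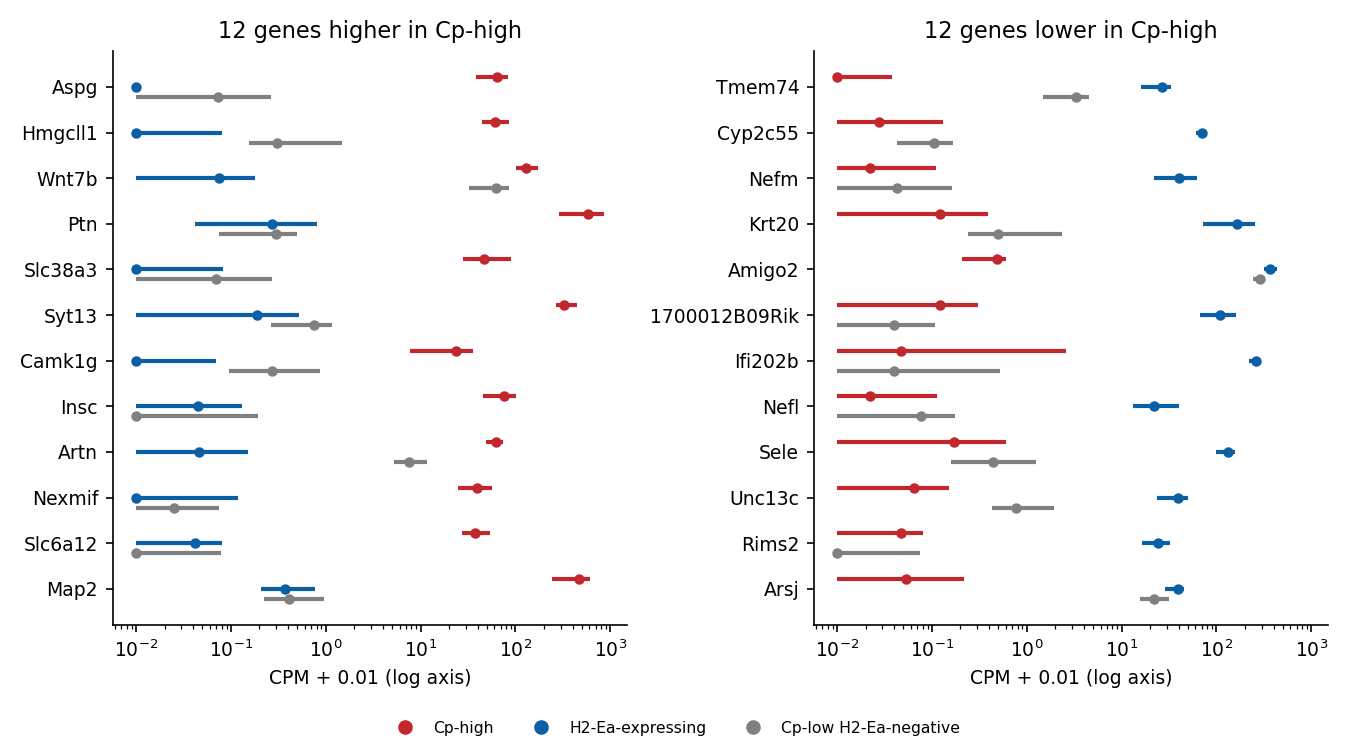
The 24 protein-coding genes with the largest differences, ordered by size, as CPM plus 0.01 on a log axis. Dots are class medians, bars run from the lowest to the highest library and colors are classes. Bars of Cp-high and H2-Ea-expressing tumors are apart for all 24 genes, and the reference libraries stay at or below 0.49 CPM for Ptn and 0.944 for Map2 but reach 320 for Amigo2 and 31.9 for Arsj.

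Epithelial genes, which mark the tissue of origin of carcinomas, were mostly higher in Cp-high tumors among those tested. Of 43 listed, 23 passed the filter, and of these 16 (69.6%) were higher and 4 (17.4%) lower without overlap. Over all genes these shares were 13.0% and 8.0%. The other 3 were not separated, and the median log2 difference of the list was 3.15. Krt8, a keratin of simple epithelia, ran 350, 435 and 622 CPM in Cp-high tumors and at most 1.22 CPM in H2-Ea-expressing tumors (10.01, SE 0.26). Its partner Krt18 ran 215, 285 and 507 CPM against 6.84, 9.21 and 40.6 CPM (4.50, SE 0.31). The pancreatic and intestinal transcription factors Pdx1 and Cdx2 ran 38.4, 55.6 and 63.9 CPM against 3.52, 4.96 and 6.42 CPM, and 5.59, 8.14 and 13.7 CPM against at most 0.761 CPM. Cdh1, which encodes E-cadherin, ran 3.62, 8.44 and 18.1 CPM against 1.27, 1.78 and 2.58 CPM (2.38, SE 0.26). The members on the other side were Krt20, the tight-junction gene Cldn6 (-8.25, SE 0.33), the pioneer factor Foxa1 (-7.51, SE 0.19) and the mucin gene Muc1 (-1.27, SE 0.14). Epcam, a defining carcinoma marker, did not pass the filter and stayed at or below 4.38 CPM in both classes.

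Markers of skin, which can be taken along with subcutaneous tumors, were uneven among the Cp-high libraries. Of 5 tested, 3 (60%) were higher and 1 (20%) lower, against 13.0% and 8.0% of all genes. Krt14 and Krt5, the basal keratins of skin, reached 210 and 108 CPM in a Cp-high tumor but had medians of 0.115 and 0.243 CPM in the class, and at most 0.254 and 0.169 CPM in H2-Ea-expressing tumors. The summed keratinocyte markers ran from 12.4 through 19.5 to 911 CPM in Cp-high tumors, with the highest in PancO2 IgG 48, and from 68.8 through 89.6 to 124 CPM in H2-Ea-expressing tumors, where Lgals7 made up most of it at 63.9, 85.7 and 119 CPM. Skeletal muscle markers gave 0 separated genes among 16 tested, and their sum reached 1271 CPM in MC38 anti-PD-1 18 around a class median of 103 CPM. Krt8 was at or above 350 CPM in all 12 Cp-high libraries, whose keratinocyte sums ran from 12.4 to 911 CPM. The part of skin in the epithelial transcripts was not tested.

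Of 25 mesenchymal genes tested, 6 (24%) were higher and 7 (28%) lower in Cp-high tumors, against 13.0% and 8.0% of all genes. Their median log2 difference was -0.54. Twist1, a transcription factor of mesenchymal cells, ran 0.304, 0.636 and 2.64 CPM in Cp-high tumors against 80.3, 91.4 and 99.3 CPM (-6.62, SE 0.23). Prrx1, another, ran 2.79, 5.04 and 14.8 CPM against 378, 430 and 511 CPM (-6.20, SE 0.23), and Snai2 (-1.95, SE 0.15) and Twist2 (-1.53, SE 0.12) were lower as well. Cdh2, which encodes N-cadherin, ran 2.23, 2.90 and 4.6 CPM in Cp-high tumors and 93.6, 101 and 115 CPM in H2-Ea-expressing tumors (-5.16, SE 0.10). Vim, which encodes the intermediate filament vimentin, had a log2 difference of -1.06 (SE 0.10). Fn1, which encodes fibronectin, was higher, at 8443, 9876 and 12544 CPM against 2075, 3877 and 5140 CPM (1.33, SE 0.11). The growth factors Tgfb3 (2.54, SE 0.14) and Tgfb2 (2.38, SE 0.24) and the TGF-beta-induced Tgfbi (1.90, SE 0.18) were also higher.

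Of 24 fibroblast and pericyte markers tested, 9 (37.5%) were higher and 2 (8.33%) lower, against 13.0% and 8.0% of all genes. The other 13 were not separated, and the median log2 difference of the list was 0.93. Dcn, the collagen-binding proteoglycan decorin, ran 1598, 2313 and 2922 CPM in Cp-high tumors and 68.2, 184 and 238 CPM in H2-Ea-expressing tumors (3.62, SE 0.17). The collagen VI chains Col6a1 (3.91, SE 0.20), Col6a2 (4.79, SE 0.25) and Col6a3 (3.73, SE 0.23) were all higher, and Col6a2 ran 733, 1228 and 1613 CPM against 15.0, 33.3 and 95.2 CPM. Notch3, a receptor of pericytes and smooth muscle, ran 164, 253 and 335 CPM against 3.88, 5.60 and 10.4 CPM (5.22, SE 0.15). The platelet-derived growth factor receptor Pdgfra ran 136, 252 and 336 CPM against 34.2, 44.5 and 72.6 CPM (2.24, SE 0.16). Of the collagen I chains, Col1a2 was lower in Cp-high tumors, at 100.2, 204 and 641 CPM against 1332, 1402 and 1893 CPM (-2.58, SE 0.24), while Col1a1 overlapped (1.30, SE 0.21). Pdpn, which encodes podoplanin, was lower (-2.31, SE 0.22).

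Of 33 iron and copper genes tested, the pathway of ceruloplasmin, 5 (15.2%, Cp included) were higher and 3 (9.09%) lower, shares near the 13.0% and 8.0% of all genes, with a median log2 difference of 0.07. Besides Cp, the higher ones included the ferrireductase Steap3, which ran 16.6, 26.3 and 32.2 CPM against 2.15, 4.05 and 7.27 CPM (2.61, SE 0.14), the metal importer Slc39a8 (2.31, SE 0.17), the second transferrin receptor Tfr2 (3.08, SE 0.23) and the copper chaperone Atox1 (1.10, SE 0.08). The related reductases Steap1 (-1.92, SE 0.17) and Steap2 (-1.36, SE 0.06) and the importer Slc39a14 (-1.03, SE 0.10) were lower. Slc40a1, which encodes the iron exporter ferroportin, and the ferritin genes Fth1 and Ftl1 overlapped, with log2 differences of 0.46 (SE 0.36), 0.20 (SE 0.09) and -0.12 (SE 0.10).

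Amino acid transporters, the class of Slc38a3, gave 2 (6.06%) higher and 6 (18.2%) lower among 33 tested, against 13.0% and 8.0% of all genes. Their median log2 difference was -0.06. Slc38a2, a widely expressed glutamine transporter, ran 285, 331 and 443 CPM in Cp-high tumors and 710, 884 and 945 CPM in H2-Ea-expressing tumors (-1.34, SE 0.08). Slc38a6 ran 106, 143 and 210 CPM against 510, 583 and 638 CPM (-2.03, SE 0.08). Slc7a1, an importer of arginine and lysine, ran 39.3, 83.3 and 157 CPM against 273, 358 and 409.5 CPM (-1.97, SE 0.21). All were separated. Slc43a2, a transporter of large neutral amino acids, was higher (1.74, SE 0.12).

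Of 13 members of the Ifi200 family tested, 4 (30.8%) were higher and 2 (15.4%), with Ifi202b, lower in Cp-high tumors (median log2 difference 0.06). The shares of all genes were 13.0% and 8.0%. Ifi206 ran 3.95, 16.3 and 95 CPM in Cp-high tumors and 0.271, 0.712 and 1.37 CPM in H2-Ea-expressing tumors (5.18, SE 0.56), and Ifi213 and Ifi205 had log2 differences of 3.20 (SE 0.36) and 2.35 (SE 0.19). Aim2, a cytosolic DNA sensor, was lower (-1.13, SE 0.10). Members of this family are near-identical copies, and their separate counts are uncertain. Of 43 interferon-stimulated genes, 4 (9.30%) were higher and 1 (2.33%) lower, below the 13.0% and 8.0% of all genes. Their median log2 difference was 0.79. The higher ones were the tandem genes Ifit1, Ifit2, Ifit3 and Ifit3b, with Ifit3 at 55.8, 108 and 335 CPM against 12.2, 20.9 and 34.2 CPM (2.61, SE 0.32). Ifi44l had 3 counts in the Cp-high class and 6.45, 10.2 and 16.2 CPM in H2-Ea-expressing tumors. Of 25 class I presentation genes, 3 (12%) were higher and 2 (8%) lower, near the 13.0% and 8.0% of all genes. Their median log2 difference was 0.65. H2-K1, a classical class I gene, ran 1260, 2061 and 3308 CPM against 548, 664 and 752 CPM (1.66, SE 0.14), and H2-Q10 ran 9.51, 13.2 and 16.1 CPM against 80.4, 114 and 151 CPM (-3.18, SE 0.13). Class I genes are polymorphic and alike, so that reads from other haplotypes may be counted unequally and these values are uncertain.

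Genes known to differ between mouse strains made up a small list. Of 8 tested, 2 (25%) were higher and 4 (50%) lower in Cp-high tumors without overlap, against 13.0% and 8.0% of all genes. The NKG2D ligand genes divided: Raet1e ran 25.9, 28.7 and 32.3 CPM in Cp-high tumors against 0.746, 0.934 and 1.49 CPM (4.77, SE 0.09), and Raet1d had a log2 difference of 3.20 (SE 0.11). H60b (-2.89, SE 0.23) and H60c (-2.29, SE 0.26) were lower, and the other lower members were H2-Ea-ps, which chose the libraries, and Ifi202b. In the reference libraries Raet1e stayed at or below 1.19 CPM and H60b at or below 0.424 CPM. Nnt, which carries a deletion in C57BL/6J, overlapped, at 75.5, 92.0 and 109.9 CPM against 75.2, 80.1 and 87.8 CPM. The list was chosen with the earlier results for H2-Ea-ps and Ifi202b known. Xist, expressed from the inactive X chromosome of females, had medians of 163 and 177 CPM, with no separated gene among the 2 sex-linked genes tested.

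Tumor genes and developmental regulators were separated in both directions. Of 37 tumor suppressors and oncogenes tested, 5 (13.5%) were higher and 7 (18.9%) lower, against 13.0% and 8.0% of all genes. Their median log2 difference was -0.15. Egfr, the receptor for epidermal growth factor, ran 217, 263 and 371 CPM in Cp-high tumors and 2.69, 3.64 and 8.09 CPM in H2-Ea-expressing tumors (5.93, SE 0.15), with 99.1, 117 and 131 CPM in the reference libraries. Smad4, the common mediator of TGF-beta signaling, ran 24.1, 27.1 and 30.7 CPM against 96.6, 102 and 105 CPM (-1.93, SE 0.05), while its receptor gene Tgfbr2 was higher (2.13, SE 0.11). Axin2, a target of Wnt signaling, ran 2.99, 7.55 and 10.8 CPM against 0.0746, 0.32 and 0.846 CPM (4.38, SE 0.25). Trp53 overlapped (-0.07, SE 0.05). Mtap, a salvage enzyme gene next to Cdkn2a on chromosome 4 that was chosen after its values were seen, ran 5.98, 8.34 and 10.2 CPM in Cp-high tumors, 208, 238 and 258 CPM in H2-Ea-expressing tumors and 289, 332 and 412 CPM in the reference libraries (-4.87, SE 0.07). Cdkn2a stayed at or below 0.987 CPM in all 3 classes.

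Hox genes, which record position along the body axis, gave 7 (28%) higher and 5 (20%) lower genes among 25 tested (median log2 difference 0.55). The shares of all genes were 13.0% and 8.0%. Hoxd13 ran 2.92, 4.13 and 5.68 CPM in Cp-high tumors and had no count in the other classes, which made it at least 365-fold higher than in the pooled H2-Ea-expressing class. Hoxc9 (4.74, SE 0.14) and Hoxc10 (4.36, SE 0.20) were higher in Cp-high tumors. Hoxa9 ran 1.12, 1.71 and 3.21 CPM against 24.3, 26.3 and 37.0 CPM (-3.86, SE 0.13), and Hoxd8 (-2.45, SE 0.19) and Hoxd3 (-3.16, SE 0.27) were lower as well.

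Pyrimidine genes belong to the metabolic subject of the study. Of 17 salvage genes tested, 2 were higher and 2 lower in Cp-high tumors, 11.8% each and near the 13.0% and 8.0% of all genes. Their median log2 difference was -0.21. Cda, the cytidine deaminase, ran 9.11, 14.3 and 21.3 CPM in Cp-high tumors and 4.96, 5.64 and 8.43 CPM in H2-Ea-expressing tumors (1.16, SE 0.14), with 3.04, 4.65 and 9.36 CPM in the reference libraries. Upp1, a uridine phosphorylase, ran 8.66, 17.7 and 46.7 CPM against 69.6, 111 and 160 CPM (-2.39, SE 0.28), and its relative Upp2 was higher (1.74, SE 0.16). Ctps, the CTP synthase of the de novo pathway, ran 45.3, 55.7 and 82.3 CPM against 108, 125 and 140 CPM (-1.13, SE 0.09) and was the only separated gene among 6 of that list. P2ry6, the UDP receptor, overlapped, at 17.8, 26.4 and 30.1 CPM against 11.8, 16.5 and 22.9 CPM (0.51, SE 0.10). Of 16 uracil nucleotide receptor and ectonucleotidase genes tested, Enpp3 (2.37, SE 0.24) and the channel gene Panx1 (1.93, SE 0.10) were higher and 0 were lower. The higher genes made up 12.5% of this list, near the 13.0% of all genes.

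For the remaining lists, the shares of all genes to set beside the counts were again 13.0% higher and 8.0% lower. Cell cycle genes gave 0 higher and 6 (18.8%) lower among 32, Foxm1 (-1.36, SE 0.09), Ccne2 (-1.34, SE 0.09), Kif20a (-1.24, SE 0.08) and Ccne1 (-1.20, SE 0.11) among them. Mki67, a proliferation marker, overlapped (-0.33, SE 0.10). Of 31 glycolysis and hypoxia genes, 5 (16.1%) were higher and 1 (3.23%) lower. Egln3, a hypoxia-induced prolyl hydroxylase, ran 153, 306 and 436 CPM against 3.66, 6.40 and 11.1 CPM (5.43, SE 0.24), and Eno2, the neuronal enolase, was lower (-3.13, SE 0.19). Of 21 complement genes, 4 were higher and 3 lower. C3, the central complement component, had a log2 difference of 2.02 (SE 0.29). Of 24 protease and inhibitor genes, 3 (12.5%) were higher and 5 (20.8%) lower, with Adamts1 at 2.53 (SE 0.09), Mmp2 at 1.99 (SE 0.25), Timp1 at -2.51 (SE 0.15) and Mmp3 at -3.22 (SE 0.38). Of 5 adipocyte genes tested, Plin4 (3.04, SE 0.23) and Pparg (2.51, SE 0.17) were higher and Fabp4 (-3.02, SE 0.32) was lower, and the defining markers Adipoq and Plin1 were at or below 1.18 CPM.

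**Figure D5:**
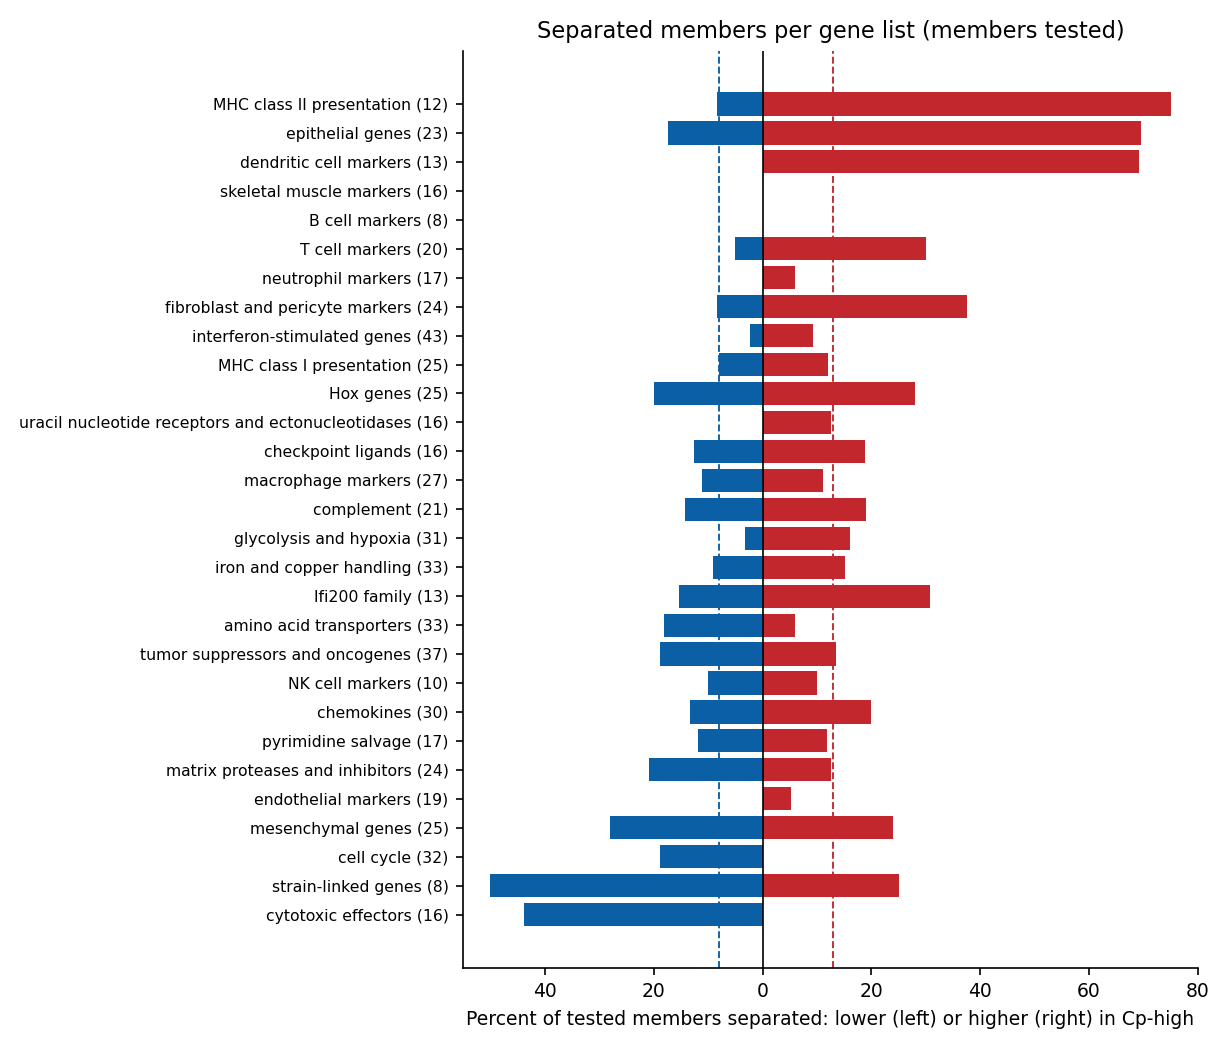
Percent of tested members of each list that were separated, lower (blue, left) or higher (red, right) in Cp-high tumors, with the number tested in parentheses and lists under 8 tested genes left out. Dashed lines are the shares over all genes tested, 8.0% and 13.0%. MHC class II, epithelial and dendritic cell lists reach furthest to the right, and the strain-linked list, whose lower members include H2-Ea-ps that chose the libraries, and the cytotoxic list extend to the left.

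Median differences were also taken by position along the genome. Among chromosomes with at least 10 tested genes, the median log2 difference ran from -0.30 for chromosome 18 to 0.37 for chromosome 11. Chromosome 11 had 244 higher and 41 lower genes among 1295 tested, and chromosome 18 had 44 higher and 50 lower among 370. Of 262 windows of 10 Mb with at least 10 tested genes, 238 had a median within 0.5 of 0, 9 lay above and 15 below. The lowest, at 0 to 10 Mb of chromosome 5, had a median of -1.15 and 20 lower against 2 higher genes among 35. The highest, at 10 to 20 Mb of the same chromosome, had a median of 2.08 with 12 genes tested. The window at 120 to 130 Mb of chromosome 3 had a median of -1.12 and 19 lower against 4 higher genes among 42.

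The libraries of a class resembled each other more than those of the other class. Pearson correlations of log2 CPM over the genes tested ran from 0.969 to 0.993 within the Cp-high class, from 0.981 to 0.996 within the H2-Ea-expressing class and from 0.848 to 0.888 between them. These correlations are across genes, which are not independent replicates, and the classes were chosen on expression. The reference libraries correlated at 0.885 to 0.915 with the Cp-high class and at 0.892 to 0.928 with the H2-Ea-expressing class. The spread of a gene within a class was a median standard deviation of 0.21 in Cp-high and 0.18 in H2-Ea-expressing tumors on the log2 scale, and 65.7% of genes were more variable in the Cp-high class.

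The genes whose log2 CPM over the 23 libraries was most like that of Cp were Masp1, Ank1, Ptprg, Trim44 and Adamts1, and those most like H2-Ea-ps were Unc13c, Rbpj-ps3, Fgf10, Tmem74 and Rims2. With libraries in 2 separate classes, a gene separated in the same direction has a high correlation by construction, so the correlation was also computed within each class. Within the Cp-high class (n = 12), the correlation with Cp was 0.63 for Ptprg, 0.59 for Adamts1, 0.41 for Masp1 and 0.33 for Trim44 but -0.25 for Ank1. Within the H2-Ea-expressing class (n = 11), it was between 0.69 and 0.87 for the 5 genes. In that class Cp was 36.5 CPM in CT26 anti-CTLA4 34 and 89.5 to 143 CPM in the others, and the weight of this 1 library was not tested. For the 5 genes like H2-Ea-ps, the correlation with H2-Ea-ps lay between 0.24 and 0.49 in the H2-Ea-expressing class. These values are a description over libraries that share the division into classes.

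The reference libraries were compared only to place the separated genes. Of the 2032 genes higher in Cp-high tumors, the reference libraries were apart from the Cp-high class alone for 763 (37.5%), from the H2-Ea-expressing class alone for 748 (36.8%), from both and between them for 251 (12.4%), and from neither for 270. Of the 1248 lower genes, these numbers were 412 (33.0%), 577 (46.2%), 124 (9.94%) and 135. Ptn was in the first group, at or below 0.49 CPM in the reference libraries, and Col6a2 was at 1123 to 2017 CPM there, overlapping the Cp-high class.

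The labeled treatments were not used by the rule and could be tested. The question was whether an antibody changed transcripts in tumors of the same class. In an edgeR quasi-likelihood fit of the 23 libraries with a term for class (16873 genes), 0 genes were called at a Benjamini-Hochberg adjusted p under 0.05 for anti-PD-1 over IgG (8 against 7 libraries), where 757 had an unadjusted p under 0.05 and the smallest adjusted p was 0.587. Dropping 1 library moved this anti-PD-1 count of 757 down or up. It was lowest, at 391, once PancO2 IgG 48 was dropped, and was 457 once CT26 anti-PD-1 46 was dropped. Its highest value, 1035 of 16783 genes, came when MC38 IgG 3 was the library dropped. For anti-CTLA4 over IgG (8 against 7 libraries), 0 genes were called by edgeR, with 773 at an unadjusted p under 0.05 and a smallest adjusted p of 0.693. A difference of the treatment effect between the classes was called for 0 genes by edgeR, with 735 at an unadjusted p under 0.05 and a smallest adjusted p of 0.630. The background percentage was thus 0 for all 3 tests. In this main fit, all 3 unadjusted counts were below 0.05 of the genes tested, the share that no effect would give on average. Some other settings put a count above that share. With no filter beyond 1 count, anti-PD-1 had 1850 and anti-CTLA4 1686 of 29711 genes at an unadjusted p under 0.05. Without MC38 IgG 7, the difference between classes had 1179 of 17039. Leaving out 1 library moved the anti-CTLA4 count between 584 and 1027 and the count for the difference between classes between 548 and 1179. DESeq2 called Slc4a1, an erythrocyte anion exchanger, for anti-PD-1 (adjusted p = 0.0184), 0 genes for anti-CTLA4 and Tspan11 for the difference between classes (adjusted p = 0.00269), and limma-voom called 0 in each. Without the library MC38 IgG 7, edgeR called 1 gene for the difference between classes, Ifi202b (adjusted p = 0.00559), and 1179 had an unadjusted p under 0.05. These genes were named after the results were seen. The labels do not follow the expression classes, and whether they name the treatment each tumor received was not tested.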

How the data were processed

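Poly-adenylated RNA of tumors was made into libraries with a TruSeq RNA kit. The files deposited by the authors hold counts, whole numbers of reads for each Ensembl gene. Per the labels, the authors checked reads with FastQC 0.11.5, mapped them to mm10 with Bowtie2 and counted them with HTSeq 07.2. Strand setting and Ensembl release are not given in the sources used here. HTSeq's 5 summary lines (44.8% to 63.4% of reads in the 35 libraries used) were dropped, leaving 37417 genes, of which 32609 had a symbol in GENCODE M21 (GRCm38). CPM used column totals.

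Genes were fitted with edgeR 4.0.16 (filterByExpr, TMM, robust glmQLFit and glmQLFTest) in R 4.3.3, two-sided with Benjamini-Hochberg adjustment, with limma-voom 3.58.1 and DESeq2 1.42.0 as alternatives. SE is the log2 difference divided by the square root of F. Tables used Python 3.11.15. Correlations used log2(CPM + 0.5). Steps were tested on simulated data.

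The classes, members, 33 gene lists and tests were chosen with earlier results of these data known. Named genes were the 12 largest separated protein-coding genes in each direction (mean of at least 10 CPM), the markers, up to 4 separated members per list and direction, and 5 genes most like Cp and H2-Ea-ps. Overlapping members, other separated list members and cell type markers were added as context. Nothing in the labels ties libraries to separate experiments, so p-values measure only the spread between these libraries. Counting intervals and limits of 3 counts cover counting error only. Some listed genes are not reported here.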

Additional observations from a re-analysis of the deposited data

Results flagged for a closer look

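The library labeled PancO2 anti-PD-1 71, which no comparison used, had H2-Ea-ps at 49.3 CPM (389 counts), above the at most 0.0845 CPM of the Cp-high class. It had Ifi202b at 278 CPM, Krt20 at 63.8 CPM, Cp at 96.5 CPM and no count of Slc38a3, while Ptn stood at 2.79 CPM. Of the 2032 separated genes higher in Cp-high tumors, it lay at or below the highest H2-Ea-expressing library for 1275 and at or above the lowest Cp-high library for 356. Of the 1248 lower genes, these numbers were 731 and 145. Mitochondrial transcripts took 15.7% of its counts, against 3.27% to 4.35% in the libraries compared. The library held 7883106 counts, and 86.5% of its reads fell in HTSeq's summary lines. That share was 50.6% to 63.4% in the Cp-high class and 53.4% to 63.3% in the H2-Ea-expressing class. It is given here because the signal lies outside the libraries compared.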

How the results depend on the processing

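No paired analysis was possible because each number in the labels belongs to 1 library. Counts of separated genes, 2032 higher and 1248 lower, stayed within 1.5 times under TMM-scaled CPM, without the filter, with the library PancO2 anti-PD-1 71 (1631 and 1154), with Cp over 500 CPM (1454 and 884) and without each library in turn (1990 to 2084 and 1240 to 1357). A log2 difference of at least 2 gave 1120 and 660. Calls by edgeR, 6311 and 5757, fell to 2532 and 1634 with an absolute log2 difference of at least 1, by construction. They ranged from 6033 to 6262 and from 5669 to 5964 without each library, and stayed within 1.5 times under DESeq2 size factors, library size only (6733 and 5305), no filter (8444 and 6591), DESeq2, limma-voom and the other class definitions. For treatment, DESeq2 called 1 gene for anti-PD-1 and 1 for the interaction, and leaving out a library gave 0 to 1 for the interaction, with the 1, Ifi202b, without MC38 IgG 7. The cause was not tested. List medians kept their sign under both scalings, which moved the median of all genes from 0.05 to 0.02 and 0.10. Of 173 named genes, 0 reversed, and 23 values moved by over 1 standard deviation under limma-voom. Depth limited genes near 0: a limit of 3 counts lay between 0.0719 and 0.254 CPM in the 23 libraries.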

Other observations

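Transcripts present in every library of 1 class at 10 CPM or more, and below 1 CPM in all libraries of both others, differed in annotated type. The H2-Ea-expressing class had 35 of them, of which 16 (45.7%) were annotated as pseudogenes and 18 as protein coding. The Cp-high class had 19 and the reference libraries 5, all protein coding. Among the pseudogenes, H2-Ea-ps was chosen by the rule, and Rbpj-ps3 ran from 41.4 to 69.5 CPM in H2-Ea-expressing tumors against at most 0.031 CPM in Cp-high tumors, and Rps2-ps13 from 85.2 to 124 CPM against at most 0.104 CPM. Rpl39l, a paralog of a ribosomal protein gene, ran from 81.3 to 105 CPM against at most 0.819 CPM. Pseudogenes share sequence with their parent genes, so these counts are uncertain. These transcripts were chosen after their values were seen.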
